A study of Mus musculus with 9 samples.

Results

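The collagen genes of this data set are the 42 of 20603 genes in the deposited count table whose symbol has the form Col, a number, the letter a and a number. Each encodes an α chain of a collagen, and the rule reads names alone and no measured value. Of the 42 genes, 11 encode fibrillar chains. A further 9 encode chains of the basement membrane or of its anchorage, of which 6 belong to type IV and the others are Col7a1, Col15a1 and Col18a1. The other 22 comprise 6 chains of type VI, 7 of the fibril-associated types, 3 of the short-chain types, 4 of the transmembrane types and 2 of neither. Counts sufficed for a test in 38 of the 42 genes, and in 15613 of all genes. The 4 collagens not tested were Col6a4 with 26 counts over the 9 libraries, Col10a1 with 20, Col25a1 with 65 and Col26a1 with 29.

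Collagen α chains wind around each other into a triple helix, which is secreted and built into the matrix outside the cell. Fibrillar types such as I, III and V form the cross-linked fibrils that give connective tissue its strength and are made chiefly by fibroblasts, whereas type IV forms the sheet-like network of basement membranes under epithelia and around vessels and muscle fibres. In the conjunctiva, the mucosa between eyelid and eyeball, fibrillar collagen fills the stroma beneath an epithelium that is anchored by types VII and XVII. Long-lasting allergic inflammation of the eye surface is known to go with remodelling of this stroma.

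Conjunctival messenger RNA was sequenced in 9 libraries, each from a pool of 3 mice on a C57BL/6J background, in 3 groups of 3 pools. Unchallenged controls and challenged controls were Vegfr3 fl/fl littermates. Challenged knockouts, named Vegfr3iLECko, carried Vegfr3 fl/fl and Prox1CreERT2, a tamoxifen-inducible Cre that the Prox1 promoter drives in lymphatic endothelial cells. All 3 groups were given tamoxifen at week 5, as 5 intraperitoneal injections of 75 mg/kg, and all were immunized at week 6 with 250 µg ovalbumin (OVA), 0.3 µg pertussis toxin (PTX) and 5 mg aluminum hydroxide. Challenge began 14 days later and consisted of a daily drop of 250 µg OVA in 5 µL on the right eye for 28 days, with saline on the other eye. The labels do not state which eye or which mice gave the unchallenged pools, and no group of unchallenged knockouts was analysed here, so the genotypes were compared under challenge alone. The labels do not say what else separated the pools of a group, so p-values measure only the spread between these pools, part of which may be technical.

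Libraries held 16490050 to 24746836 counts, and levels are given in CPM, counts relative to the library's total scaled with TMM factors. Transcripts of Flt4, the gene of Vegfr3, stood at 18.5, 26.7 and 13.5 CPM in unchallenged controls 1 to 3, 13.3, 20.2 and 20.1 CPM in challenged controls and 13.0, 5.07 and 5.31 CPM in challenged knockouts. Every knockout was below every challenged control, with a log2 fold change of -1.20 ± 0.40, adjusted p = 0.468 by edgeR's quasi-likelihood test, and knockout 1 lay closest to the controls. Epithelial content was described with 10 markers, all of them measured, which took 1.99 to 2.73% of the counts in unchallenged controls, 1.91 to 2.87% in challenged controls and 2.11 to 3.24% in knockouts. Keratin genes Krt5 and Krt4 were their most abundant members. Krt12 is also on a list for cartilage, bone and cornea used below. The sum therefore cannot tell conjunctiva from neighbouring epithelium and does not test the tissue label. The pools also differed in transcripts of skeletal muscle and fat, tissues that border the conjunctiva. Skeletal muscle genes, of which 11 of 12 on the list were in the table, took 0.182 to 0.629% of the counts in unchallenged controls, 0.0351 to 0.101% in challenged controls and 0.238 to 0.384% in knockouts. Adipocyte genes (7 of 7 in the table) took 0.0021 to 0.0104%, 0.000495 to 0.00157% and 0.00318 to 0.00533%. Of these 2 lists, no member was at 0 in all libraries of a group, and their part in the collagen results was not tested.

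Promoter sequences are shown for 5 collagens on which the results turn: the 2 most abundant fibrillar genes, the pair of type IV genes whose promoter windows overlap, and Col6a5, which differed most between groups. Each runs 5′ to 3′ on the strand of the gene, from 250 bases before to 50 bases after the annotated start, as given by RefSeq for GRCm38.p6. Capitals mark matches on either strand to the TATA box, searched as TATAAA. They also mark the CCAAT box, searched by those letters, and the GC box, searched as GGGCGG, each counted whether or not it overlapped another motif. Such a match describes letters and not a bound site. The windows are Col3a1 at chr1:45311288-45311587 (+ strand), Col1a2 at chr6:4505368-4505667 (+), Col4a1 at chr8:11312777-11313076 (-), Col4a2 at chr8:11312555-11312854 (+) and Col6a5 at chr9:105960594-105960893 (-).
Col3a1: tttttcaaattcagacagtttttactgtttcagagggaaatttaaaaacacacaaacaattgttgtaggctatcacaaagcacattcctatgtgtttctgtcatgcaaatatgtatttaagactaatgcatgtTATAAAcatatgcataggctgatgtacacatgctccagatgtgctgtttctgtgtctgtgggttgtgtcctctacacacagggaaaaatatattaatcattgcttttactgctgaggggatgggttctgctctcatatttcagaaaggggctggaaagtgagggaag
Col1a2: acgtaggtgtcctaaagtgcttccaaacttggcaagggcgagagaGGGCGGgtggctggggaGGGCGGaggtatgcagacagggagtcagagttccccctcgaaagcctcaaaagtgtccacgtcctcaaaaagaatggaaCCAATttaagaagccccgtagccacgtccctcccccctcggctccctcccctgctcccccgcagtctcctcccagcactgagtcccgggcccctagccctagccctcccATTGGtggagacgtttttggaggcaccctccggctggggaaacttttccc
Col4a1: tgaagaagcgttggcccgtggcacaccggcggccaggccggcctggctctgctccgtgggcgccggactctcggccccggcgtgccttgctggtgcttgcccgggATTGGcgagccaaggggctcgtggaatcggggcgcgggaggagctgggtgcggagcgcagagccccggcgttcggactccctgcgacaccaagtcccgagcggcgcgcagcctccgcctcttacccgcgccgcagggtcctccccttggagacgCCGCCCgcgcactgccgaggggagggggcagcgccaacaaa
Col4a2: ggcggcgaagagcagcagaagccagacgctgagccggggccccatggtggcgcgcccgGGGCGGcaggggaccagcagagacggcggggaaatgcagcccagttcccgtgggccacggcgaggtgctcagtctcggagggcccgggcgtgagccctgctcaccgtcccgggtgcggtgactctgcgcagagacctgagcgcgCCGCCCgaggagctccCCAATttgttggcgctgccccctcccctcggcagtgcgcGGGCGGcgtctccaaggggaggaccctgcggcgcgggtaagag
Col6a5: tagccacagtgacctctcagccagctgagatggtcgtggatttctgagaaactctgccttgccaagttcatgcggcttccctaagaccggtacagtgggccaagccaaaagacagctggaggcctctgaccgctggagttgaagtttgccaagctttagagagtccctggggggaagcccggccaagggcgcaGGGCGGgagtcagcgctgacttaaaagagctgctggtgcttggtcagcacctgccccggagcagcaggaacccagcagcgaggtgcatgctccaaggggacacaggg

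The window of Col3a1 holds a match to the TATA box and neither other motif, and 37.7% of its bases are G or C. Matches were counted anywhere in a window, whatever their distance from the start. That of Col1a2 holds 2 CCAAT boxes and 2 GC boxes at 61.0% G or C. Col4a1 and Col4a2 are transcribed away from each other, and their windows overlap by 78 bases, at chr8:11312777-11312854, that read identically on opposite strands. Over 36 promoter windows of 33 matched collagen genes, 22 (61.1%) held a GC box, compared with 35.7% of all 32851 windows in the table. A TATA box was found in 5 (13.9%, against 13.6%) and a CCAAT box in 13 (36.1%, against 37.4%). Median G and C content was 59.85% in the collagen windows and 52.7% in all. Other collagens also lie side by side with no coding gene between them: Col4a3 with Col4a4 and Col4a5 with Col4a6 head to head, Col6a1 with Col6a2 and Col6a4 with Col6a5 and Col6a6 in the same direction, and Col3a1 with Col5a2 tail to tail.

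In unchallenged conjunctiva, collagen mRNA was dominated by the chains of types III and I. Per kilobase of transcript, the mean level was 536 ± 237 CPM/kb for Col3a1, 412 ± 158 for Col1a2 and 280.0 ± 159.8 for Col1a1 (SD, n = 3). Next in order was Col17a1, the transmembrane collagen of epithelial hemidesmosomes, at 122 ± 37.1 CPM/kb. The type VI chains Col6a1 and Col6a2, which form beaded microfibrils around cells, followed at 90.1 and 71.9 CPM/kb. After them came Col14a1, which binds to the surface of fibrils, at 58.2 CPM/kb, and the type V chains Col5a1 and Col5a2, which seed and limit fibril growth, at 36.6 and 30.8 CPM/kb. The SDs of Col3a1, Col1a2 and Col1a1 overlapped, as did those of Col6a1 with Col6a2 and of Col5a1 with Col5a2, although each of the 3 pools gave the same order within each of these sets. The SDs of Col17a1 and Col6a1 overlapped too, as did those of Col6a2 and Col14a1. In these pairs the order differed between pools.

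Basement membrane chains were lower. Col18a1, the source of endostatin, stood at 12.3 ± 3.41 CPM/kb and Col4a1, a chain of nearly every basement membrane, at 11.5 ± 6.21 CPM/kb, with Col4a2 at 7.55 ± 3.69. The epithelial chains Col4a5 and Col4a6 stood at 5.72 ± 1.40 and 4.89 ± 1.07, and the anchoring fibril gene Col7a1 at 3.31 ± 0.238 CPM/kb. Col4a3 was the lowest of the 9 at 0.0999 ± 0.0309 CPM/kb, although it shares a locus with Col4a4 at 2.73 ± 1.08. Of the chains known from cartilage, some were near the bottom, with Col2a1 at 0.142 ± 0.075, Col9a1 at 0.216 ± 0.149 and Col9a3 at 0.234 ± 0.164 CPM/kb. The type XI chains were higher, with Col11a1 at 0.959 ± 0.278 CPM/kb (29th of 42) and Col11a2 at 4.26 ± 2.39 CPM/kb (20th). Col6a5 was 39th of 42 at 0.0922 ± 0.0256 CPM/kb, where 3 counts in a library amount to 0.121 to 0.182 CPM before division by length. Lengths are of the transcript with the longest coding sequence in GENCODE M21 and may differ from the models the authors counted.

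**Figure D1:**
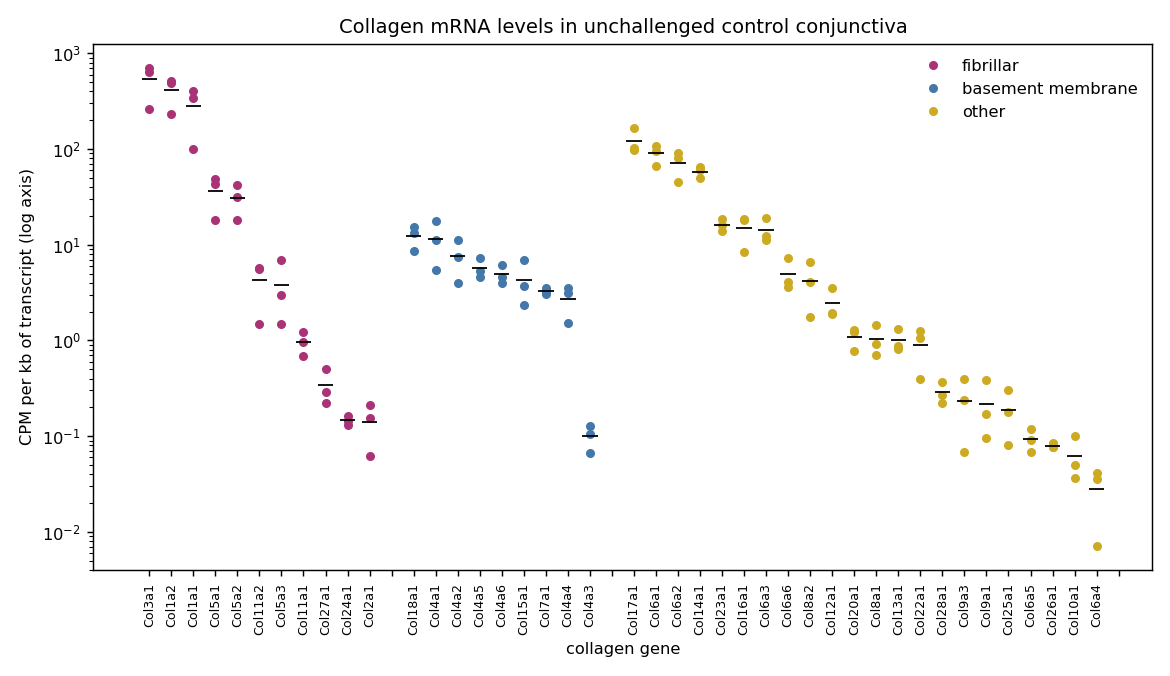
Level of each of the 42 collagen genes in unchallenged controls, in CPM per kilobase of transcript on a log axis. Points are the 3 pools, bars their mean, and colours the 3 classes; Col3a1, Col1a2 and Col1a1 have the highest means.

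The pools of the unchallenged group themselves differed in fibrillar mRNA. Col1a1 stood at 587, 2380.2 and 2014 CPM in unchallenged controls 1 to 3, 804, 1769 and 1550.5 CPM in challenged controls and 1443, 864 and 550.1 CPM in challenged knockouts. Col3a1 stood at 1474, 3922 and 3547 CPM in unchallenged controls 1 to 3, 1845, 3237 and 2869.8 CPM in challenged controls and 2617, 1431 and 896 CPM in challenged knockouts. Within the unchallenged group the level of Col1a1 in pool 2 was 4.05 times that in pool 1, and for Col3a1 the ratio was 2.66. Unchallenged pool 1, challenged control 1 and knockouts 2 and 3 were the low libraries for both genes, so low and high pools occurred in each group.

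Challenged controls, given daily ovalbumin for 28 days, were compared with unchallenged controls to ask how chronic ocular allergy affects the tissue. The eye and the mice that gave the unchallenged pools are not stated. Among the collagens, Col6a5 mRNA was 14.5-fold higher in challenged controls, while several low-abundance chains (Col22a1, Col11a1, Col8a2, Col24a1, Col12a1 and Col13a1) were 2.07- to 4.64-fold lower. The abundant fibrillar genes and the type IV genes differed by less than the spread between pools. No collagen of the 38 tested passed an adjusted p of 0.05 by edgeR's quasi-likelihood test with Benjamini-Hochberg adjustment over 15613 genes, of which 10 passed (0.064%). At an unadjusted p under 0.05, 1 collagen was higher and 6 were lower, that is 7 of 38 beside 12.4% of all genes (6.77% higher, 5.65% lower). By DESeq2 3 collagens passed (Col6a5, Col22a1 and Col12a1, with 4.82% of all genes), and by limma voom none.

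Col6a5, a later-described α chain of type VI collagen, stood at 0.627, 0.842 and 1.10 CPM in unchallenged controls 1 to 3, 19.7, 7.21 and 10.5 CPM in challenged controls and 3.58, 4.01 and 0.514 CPM in challenged knockouts. All 3 challenged controls were above all 3 unchallenged controls and all 3 knockouts. The counts behind these values were 55, 665 and 169, summed over the 3 pools of each group in that order. Its log2 fold change under challenge was 3.85 ± 0.70, adjusted p = 0.0886 by edgeR. The control pools with the same replicate number deviated from their group means together (given with the processing). With the replicate number as a block the estimate was 3.75 ± 0.68 with an adjusted p = 0.0402 by edgeR, which passed. In that fit 267 genes (1.71%) passed. It blocked the knockouts by number too, and whether the numbers mark pairs is not known. DESeq2 gave 3.88 with an adjusted p = 1.14e-06, and limma voom 3.69 with an adjusted p = 0.137. Without knockout 3 the edgeR adjusted p was 0.048 at an unchanged estimate, and over the 9 single-library omissions it ran from 0.048 to 0.354, the highest without unchallenged control 2.

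T cell transcripts followed the same order of groups as Col6a5. The 7 genes of a T cell list, all in the table and tested, took 0.00135 to 0.00217% of the counts in unchallenged controls, 0.00775 to 0.0158% in challenged controls and 0.00223 to 0.00289% in knockouts. All 7 were higher without overlap in challenged controls than in unchallenged controls (7.21% of all genes), 2 of them (Cd8a and Lck) past the threshold. All 7 were lower without overlap in knockouts than in challenged controls (6.24% of all genes). None of the 7 was at 0 over a group, and their part in the Col6a5 result was not tested. For the other tested type VI chains the control groups overlapped, with log2 fold changes under challenge of -0.22 ± 0.31 for Col6a1, -0.25 ± 0.36 for Col6a2, -0.12 ± 0.46 for Col6a3 and 0.14 ± 0.40 for Col6a6. Col6a4, the neighbour of Col6a5, had 14, 7 and 5 counts in the 3 groups and was not tested.

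Of the collagens with lower estimates under challenge, Col22a1, a fibril-associated chain found at tissue junctions such as that of muscle and tendon, stood at 3.45, 11.1 and 9.34 CPM in unchallenged controls 1 to 3, 2.04, 2.02 and 1.08 CPM in challenged controls and 4.55, 3.01 and 2.34 CPM in challenged knockouts. Its groups did not overlap between unchallenged and challenged controls. The log2 fold change was -2.22 ± 0.49, adjusted p = 0.102 by edgeR, and DESeq2 gave an adjusted p = 0.000863. Without unchallenged control 1, the lowest pool of its group, the edgeR estimate was -2.58 with an adjusted p = 0.0384. Col12a1, which like Col14a1 decorates fibrils and is raised in tissue under mechanical load, stood at 22.2, 41.0 and 21.5 CPM in unchallenged controls 1 to 3, 12.6, 13.1 and 11.7 CPM in challenged controls and 27.9, 11.6 and 13.1 CPM in challenged knockouts. The 3 challenged controls lay within a narrow band below every unchallenged control, at a log2 fold change of -1.18 ± 0.37, adjusted p = 0.203 by edgeR and an adjusted p = 0.0454 by DESeq2.

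Minor fibrillar chains had estimates in the same direction. Col11a1, which nucleates the fibrils of cartilage and of some other tissues, stood at 5.23, 9.49 and 7.34 CPM in unchallenged controls 1 to 3, 2.60, 2.28 and 0.285 CPM in challenged controls and 6.53, 2.71 and 0.800 CPM in challenged knockouts. Col24a1, a fibrillar chain known from developing bone and cornea, stood at 1.15, 1.03 and 0.944 CPM in unchallenged controls 1 to 3, 0.556, 0.403 and 0.057 CPM in challenged controls and 0.778, 0.884 and 0.686 CPM in challenged knockouts. In both genes every challenged control was below every unchallenged control. Their log2 fold changes under challenge were -2.09 ± 0.80, adjusted p = 0.307, and -1.61 ± 0.63, adjusted p = 0.317 by edgeR. The short-chain gene Col8a2, a component of the membrane behind the cornea, stood at 7.53, 28.6 and 17.7 CPM in unchallenged controls 1 to 3, 3.65, 9.49 and 1.54 CPM in challenged controls and 9.84, 6.25 and 3.48 CPM in challenged knockouts, with groups that overlapped and a log2 fold change of -1.86 ± 0.68, adjusted p = 0.275. The transmembrane gene Col13a1 stood at 2.77, 4.17 and 2.57 CPM in unchallenged controls 1 to 3, 1.73, 1.61 and 1.25 CPM in challenged controls and 2.84, 1.71 and 1.37 CPM in challenged knockouts, without overlap between the control groups and at -1.05 ± 0.40, adjusted p = 0.299 by edgeR.

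In all, 1 collagen (Col6a5) was higher and 7 (Col8a1, Col11a1, Col12a1, Col13a1, Col20a1, Col22a1 and Col24a1) were lower without overlap between the control groups, or 8 of 38 beside 15.7% of all genes (7.21% higher, 8.5% lower). Estimates were below 0 for 31 of 38, compared with 51.5% of all genes. The median log2 fold change was -0.25 over the 38 collagens, -0.27 over 11 fibrillar genes, -0.15 over 9 basement membrane genes and -0.24 over 18 others, beside -0.01 over all genes. Lists of related genes, described below, shared this direction. Estimates were below 0 for all 10 fibroblast markers (median -0.23) and all 12 tested procollagen processing and crosslinking genes (-0.33). They were below 0 for 16 of 20 collagen synthesis genes (-0.21). Same-numbered control pools were also compared, a count added after the data were seen. Of the 38 collagens, 5 were higher and 19 lower in all 3 such pairs, on log2 CPM with a pseudocount of 0.5, beside 21.3% and 22.8% of all genes. The 19 lower ones were 5 of 11 fibrillar, 2 of 9 basement membrane and 12 of 18 other genes. Without unchallenged control 2 the medians were nearer 0, at -0.09 for the 38 genes and -0.05 for the fibrillar ones, and without unchallenged control 1 they were -0.47 and -0.64. In these same pools all 11 muscle genes had unadjusted p under 0.05 and lower estimates, with a median of -2.31, 10 of them without overlap, and the 6 tested adipocyte genes had a median of -3.63; 0 genes of either list passed the adjusted threshold. The list for cartilage, bone and cornea (5 genes in the table) had a median of -0.01, and summed to 0.00852 to 0.0093% of the counts in unchallenged and 0.00578 to 0.00751% in challenged controls. Its 5 estimates ran from -2.03 to 0.72, 3 of them below 0. The part of these tissues in the lower collagen values was not tested.

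**Figure D2:**
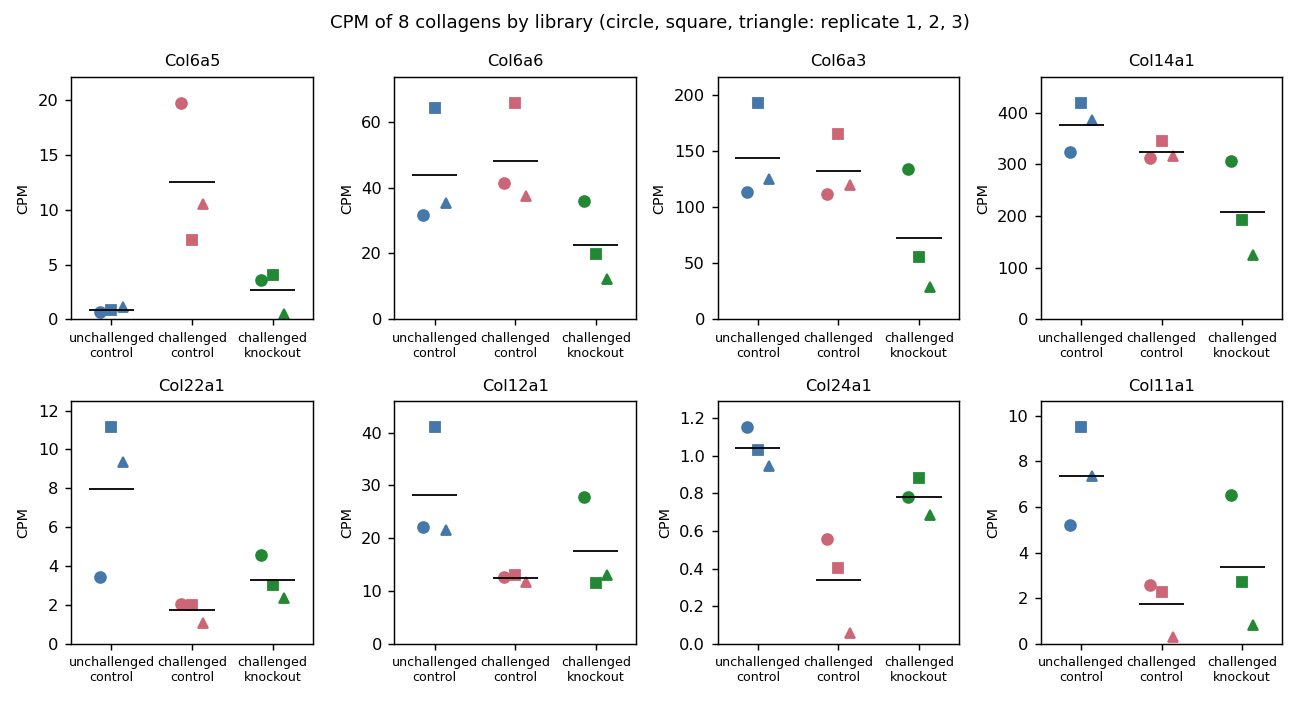
CPM of Col6a5, Col6a6, Col6a3, Col14a1, Col22a1, Col12a1, Col24a1 and Col11a1 in each library (linear axes from 0). Points are pools, marker shape gives the replicate number and bars are group means; Col6a5 is highest in the challenged controls, and in the 4 genes of the lower row every challenged control is below every unchallenged control.

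The abundant fibrillar genes gave no difference beyond the spread. Log2 fold changes under challenge were -0.17 ± 0.45, adjusted p = 0.95 for Col3a1, -0.24 ± 0.39, adjusted p = 0.9 for Col1a2, -0.27 ± 0.52, adjusted p = 0.92 for Col1a1 and -0.32 ± 0.42, adjusted p = 0.864 for Col5a1 by edgeR. Col1a2 stood at 1229, 2745 and 2641 CPM in unchallenged controls 1 to 3, 1439, 2104 and 2061 CPM in challenged controls and 1868, 1235 and 734 CPM in challenged knockouts. Col5a1 stood at 154, 407 and 363 CPM in unchallenged controls 1 to 3, 149, 322 and 267 CPM in challenged controls and 233, 141 and 103 CPM in challenged knockouts. In each of the 4 genes the control groups overlapped. Without unchallenged control 2, the pool with the highest values, the estimates of Col1a1 and Col3a1 turned to 0.08 and 0.08, and without unchallenged control 1 they were -0.68 and -0.49. These data are from bulk tissue, where fewer cells of a type and less RNA per cell cannot be told apart.

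Summed over the 11 genes, fibrillar transcripts made up 0.381, 1.04 and 0.853% of the counts of unchallenged controls 1 to 3, 0.434, 0.777 and 0.665% of those of challenged controls and 0.685, 0.359 and 0.232% of those of challenged knockouts. The log2 difference of challenged from unchallenged controls was -0.20 (two-sided exact permutation p = 0.7), and with 3 pools against 3 the smallest p possible is 0.1. Without unchallenged control 2 the difference was 0.09, and without unchallenged control 1 it was -0.63. A list of 10 fibroblast markers, all in the table and none of them a collagen, took 0.402 to 0.539% of the counts in unchallenged controls, 0.300 to 0.409% in challenged controls and 0.222 to 0.460% in knockouts. Relative to the sum of that list, the fibrillar sum was 0.707, 2.0 and 2.12 in unchallenged controls, 1.15, 1.90 and 2.22 in challenged controls and 1.49, 1.42 and 1.05 in knockouts. On that scale, chosen after the data were seen, the log2 difference under challenge was 0.23, so its direction turned. Unchallenged control 1, at 0.707, was the lowest of the 9 libraries on that scale, well below the 2.0 and 2.12 of its group. Single libraries were not left out on that scale, so how far the turn rests on this pool was not tested.

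**Figure D3:**
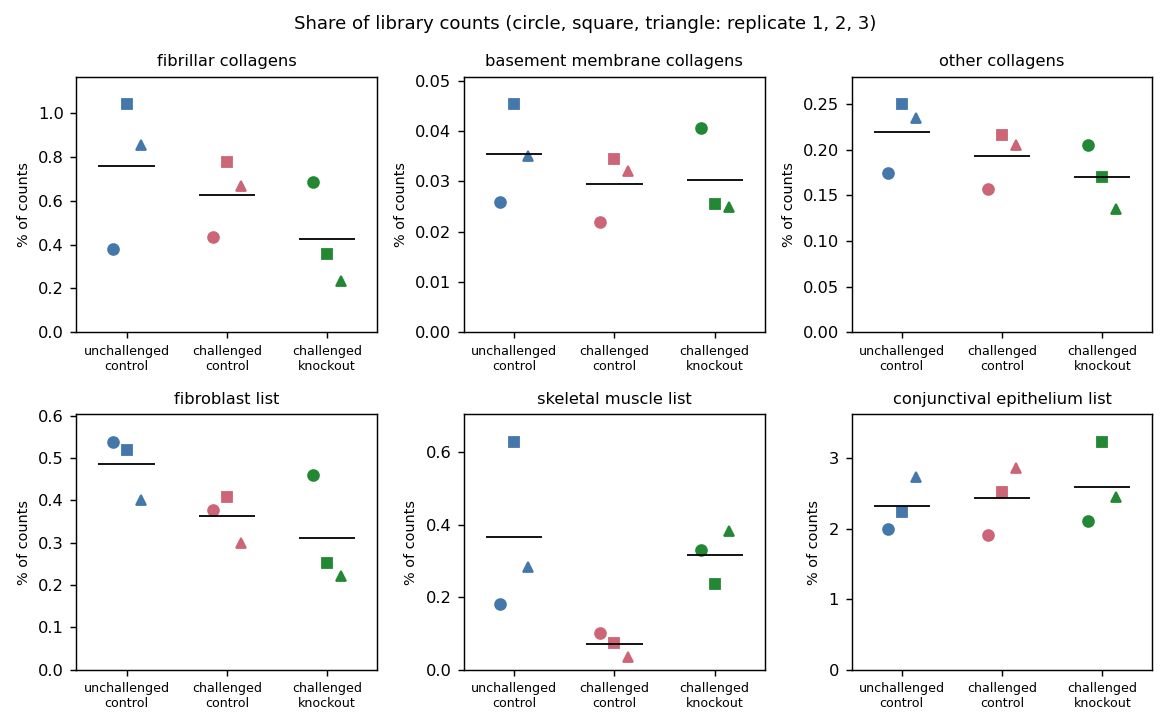
Percent of a library's counts taken by fibrillar, basement membrane and other collagens (upper row) and by the fibroblast, skeletal muscle and epithelium lists (lower row). Points are pools, marker shape gives the replicate number, bars are group means and all axes start at 0; the 3 collagen classes overlap between groups, while muscle is lowest in challenged controls.

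Basement membrane transcripts summed to 0.0258, 0.0453 and 0.0351% of the counts of unchallenged controls 1 to 3, 0.022, 0.0343 and 0.0321% of those of challenged controls and 0.0406, 0.0255 and 0.0249% of those of challenged knockouts. Their log2 difference under challenge was -0.25 (exact permutation p = 0.4), with groups that overlapped. The share was lower in the challenged pool of all 3 same-numbered control pairs (sign-flip exact p = 0.25, the smallest 3 pairs allow). This was not particular to the basement membrane class. The share of the other collagens was also lower in all 3 pairs, at 0.174, 0.249 and 0.234% in unchallenged and 0.157, 0.216 and 0.205% in challenged controls 1 to 3. The vascular and epithelial chain Col4a1 stood at 36.2, 118 and 73.9 CPM in unchallenged controls 1 to 3, 41.8, 71.3 and 56.6 CPM in challenged controls and 94.7, 55.2 and 60.4 CPM in challenged knockouts. Its partner Col4a2 stood at 25.4, 73.0 and 47.7 CPM in unchallenged controls 1 to 3, 31.4, 43.9 and 32.3 CPM in challenged controls and 60.7, 37.1 and 33.2 CPM in challenged knockouts. Both were -0.43 and -0.44 on the log2 scale under challenge, with groups that overlapped. The 8 genes of a list for blood endothelium and pericytes, whose cells rest on type IV collagen, all had estimates below 0 under challenge, 3 of them with unadjusted p under 0.05 and 0 past the threshold, with a median log2 fold change of -0.85. They took 0.0193 to 0.035% of the counts in unchallenged controls, 0.0121 to 0.0179% in challenged controls and 0.0121 to 0.0339% in knockouts, and between genotypes 7 of 8 estimates were above 0 with a median of 0.76. None of the 8 was at 0 over a group, and their part in the type IV values was not tested. The ratio of Col4a2 to Col4a1 counts, the pair with the overlapping promoters, was 0.702, 0.617 and 0.646 in unchallenged controls 1 to 3, 0.751, 0.615 and 0.569 in challenged controls and 0.641, 0.672 and 0.550 in challenged knockouts. It stayed between 0.550 and 0.751 in the 9 libraries although Col4a1 itself ranged from 36.2 to 118 CPM. The ratio of Col6a2 to Col6a1 counts likewise stayed between 0.660 and 0.881, while Col6a1 ranged from 139.8 to 446 CPM. The part of the overlapping promoters in the Col4a2 to Col4a1 ratio was not tested.

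Of the other chains of the basement membrane zone, Col18a1 stood at 47.9, 73.7 and 85.2 CPM in unchallenged controls 1 to 3, 43.5, 59.1 and 83.3 CPM in challenged controls and 61.0, 61.0 and 37.1 CPM in challenged knockouts. The epithelial chain Col4a5 stood at 30.1, 34.4 and 47.7 CPM in unchallenged controls 1 to 3, 24.0, 36.1 and 46.4 CPM in challenged controls and 44.8, 33.6 and 40.4 CPM in challenged knockouts. Both overlapped in every comparison, with log2 fold changes under challenge of -0.15 ± 0.30 and -0.07 ± 0.26. Col17a1, in the hemidesmosomes of basal epithelial cells, stood at 549.7, 579 and 922 CPM in unchallenged controls 1 to 3, 553, 668 and 974 CPM in challenged controls and 622, 986 and 829 CPM in challenged knockouts, with a log2 fold change of 0.10 ± 0.29, adjusted p = 0.954 under challenge and 0.15 ± 0.29, adjusted p = 0.889 between genotypes by edgeR.

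**Figure D4:**
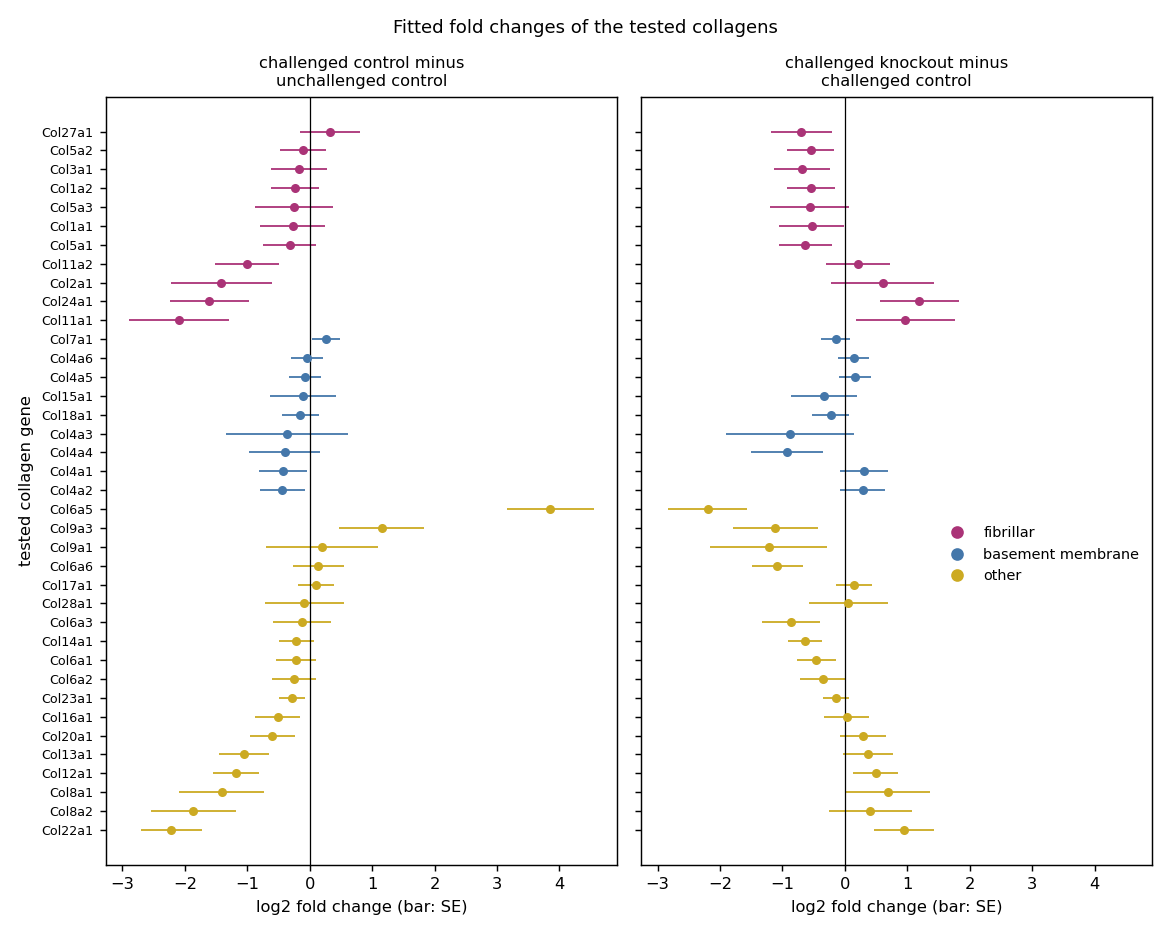
Log2 fold change of each of the 38 tested collagens under challenge (left) and between genotypes under challenge (right), from 1 edgeR fit of 9 libraries; bars are SE and colours classes. The comparisons share the challenged controls. Col6a5 lies at 3.85 and -2.20, and the 7 fibrillar genes with the highest estimates under challenge lie between -0.53 and -0.70 between genotypes.

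Challenged knockouts were set against challenged controls to ask what loss of Vegfr3 in lymphatic endothelium did to the challenged tissue. Col6a5, Col6a6 and Col14a1 were lower in every knockout than in any challenged control, at 4.59-, 2.12- and 1.56-fold, and the main fibrillar genes had lower means but overlapped. None of the 38 collagens, and none of the 15613 genes (0%), passed an adjusted p of 0.05 by edgeR. At an unadjusted p under 0.05, 3 collagens were lower and 0 were higher (8.49% of all genes in either direction, 3.95% higher and 4.53% lower). By DESeq2 1 collagen (Col6a5) passed, with 1.48% of all genes, and by limma voom none. Without overlap, 2 collagens were higher (Col22a1 and Col24a1) and 3 lower (Col6a5, Col6a6 and Col14a1), or 5 of 38 beside 12.9% of all genes (6.7% higher, 6.24% lower). The collagen shares, 5.3% higher and 7.9% lower, were near those of all genes. Lack of overlap between genotypes thus does not set the collagens apart. Estimates were below 0 for 21 of 38 and for 49.6% of all genes. This comparison shares the challenged controls with that of challenge, so that a gene whose challenged controls were extreme has estimates of opposite sign in both.

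Type VI collagen had lower estimates in the knockouts for each of its 5 tested chains, with a median log2 fold change of -0.86 beside 0.00 over all genes. This direction was not particular to type VI. The fibrillar genes Col3a1 at -0.69 and Col1a1 at -0.53, given below, had lower estimates than Col6a1 at -0.46 and Col6a2 at -0.35. For Col6a5 the estimate was -2.20 ± 0.64, adjusted p = 0.38 by edgeR and -2.22 with an adjusted p = 0.0328 by DESeq2. Knockout 3 held 0.514 CPM, below the lowest unchallenged control. Col6a6, which lies beside Col6a5, stood at 31.6, 64.2 and 35.5 CPM in unchallenged controls 1 to 3, 41.4, 65.6 and 37.5 CPM in challenged controls and 35.9, 19.7 and 12.3 CPM in challenged knockouts, a log2 fold change of -1.09 ± 0.41, adjusted p = 0.512. Col6a3, the long chain that completes the classical type VI trimer, stood at 114, 192 and 125 CPM in unchallenged controls 1 to 3, 112, 165 and 119 CPM in challenged controls and 133, 55.7 and 28.4 CPM in challenged knockouts, with -0.86 ± 0.47, adjusted p = 0.659 by edgeR. Knockout 1 was as high as the controls in Col6a3, whereas knockouts 2 and 3 were below them.

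The other 2 chains of the classical trimer were less far apart between genotypes. Col6a1 stood at 270.5, 446 and 391 CPM in unchallenged controls 1 to 3, 265, 382 and 304 CPM in challenged controls and 339.9, 213 and 139.8 CPM in challenged knockouts. Col6a2 stood at 180.4, 355 and 317 CPM in unchallenged controls 1 to 3, 175, 301 and 239.6 CPM in challenged controls and 267, 187 and 105 CPM in challenged knockouts. The groups of each overlapped, and the log2 fold changes were -0.46 ± 0.31, adjusted p = 0.721 and -0.35 ± 0.36, adjusted p = 0.793 by edgeR. Without knockout 1 the estimates were -0.84 for Col6a1 and -0.70 for Col6a2, and without knockout 3 they were -0.20 and -0.07. The ratio of Col6a3 to Col6a1 counts was 0.420, 0.431 and 0.318 in unchallenged controls 1 to 3, 0.422, 0.431 and 0.392 in challenged controls and 0.393, 0.262 and 0.203 in challenged knockouts, a log2 difference of -0.59 between genotypes (exact permutation p = 0.2). Without knockout 1 that difference was -0.85. Col14a1 stood at 323, 418 and 386 CPM in unchallenged controls 1 to 3, 312, 345 and 316 CPM in challenged controls and 307, 193 and 125 CPM in challenged knockouts. Its log2 fold change between genotypes was -0.64 ± 0.28, adjusted p = 0.579 by edgeR, and -1.03 without knockout 1, the knockout nearest to the controls, against -0.37 without knockout 3.

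For the main fibrillar genes, log2 fold changes between genotypes were -0.69 ± 0.45, adjusted p = 0.715 for Col3a1, -0.63 ± 0.42, adjusted p = 0.716 for Col5a1, -0.55 ± 0.39, adjusted p = 0.726 for Col1a2 and -0.53 ± 0.52, adjusted p = 0.789 for Col1a1 by edgeR. The median was -0.55 over the 11 fibrillar genes, -0.15 over the basement membrane genes (0.15 over type IV alone) and -0.06 over the 18 others. The fibrillar median was -0.96 without knockout 1 and -0.25 without knockout 3. The other 4, low-abundance chains, had estimates above 0, among them Col24a1 at 1.19 ± 0.63, adjusted p = 0.652 and Col11a1 at 0.97 ± 0.79, adjusted p = 0.762. The Col11a1 estimate was 0.03 without knockout 1 and 1.43 without knockout 3. The fibrillar share of counts differed by -0.66 on the log2 scale (exact permutation p = 0.3), by -1.07 without knockout 1 and by -0.29 without knockout 3, and the basement membrane share by 0.03 (p = 1, exact permutation test).

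Muscle genes also separated these groups, since all 11 were higher without overlap in knockouts than in challenged controls, beside 6.7% of all genes. Their median log2 fold change was 2.13, and 0 passed the adjusted threshold. The 6 tested adipocyte genes had a median of 1.56. Col22a1 and Col24a1, the 2 collagens higher without overlap in knockouts, had estimates of 0.95 ± 0.48, adjusted p = 0.636 and 1.19 ± 0.63, adjusted p = 0.652 by edgeR. Fibroblast markers had a median of -0.25, with 8 of 10 estimates below 0 and 0 past the threshold. The part of these tissues in the collagen estimates was not tested.

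Ratios of counts within a library do not depend on library scaling, so ratios between chains and between class sums were also compared. The ratio of summed basement membrane to summed fibrillar counts was 0.0678, 0.0436 and 0.0411 in unchallenged controls 1 to 3, 0.0506, 0.0442 and 0.0483 in challenged controls and 0.0592, 0.0712 and 0.107 in challenged knockouts. Every knockout was above every challenged control, at a log2 difference of 0.69 (exact permutation p = 0.1, the smallest possible; 0.667 adjusted over 30 tests). Unchallenged control 1 reached 0.0678, within the range of the knockouts. The ratio of Col3a1 to Col1a1, the main partners of stromal fibrils, was 2.51, 1.65 and 1.76 in unchallenged controls 1 to 3, 2.29, 1.83 and 1.85 in challenged controls and 1.81, 1.66 and 1.63 in challenged knockouts. Here every knockout was below every challenged control, at -0.22 on the log2 scale (exact permutation p = 0.1, adjusted p = 0.667), and 2 of 3 unchallenged controls lay within their range. No other ratio separated the genotypes. Among the 30 ratio tests and 12 share tests no adjusted p was below 0.667.

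**Figure D5:**
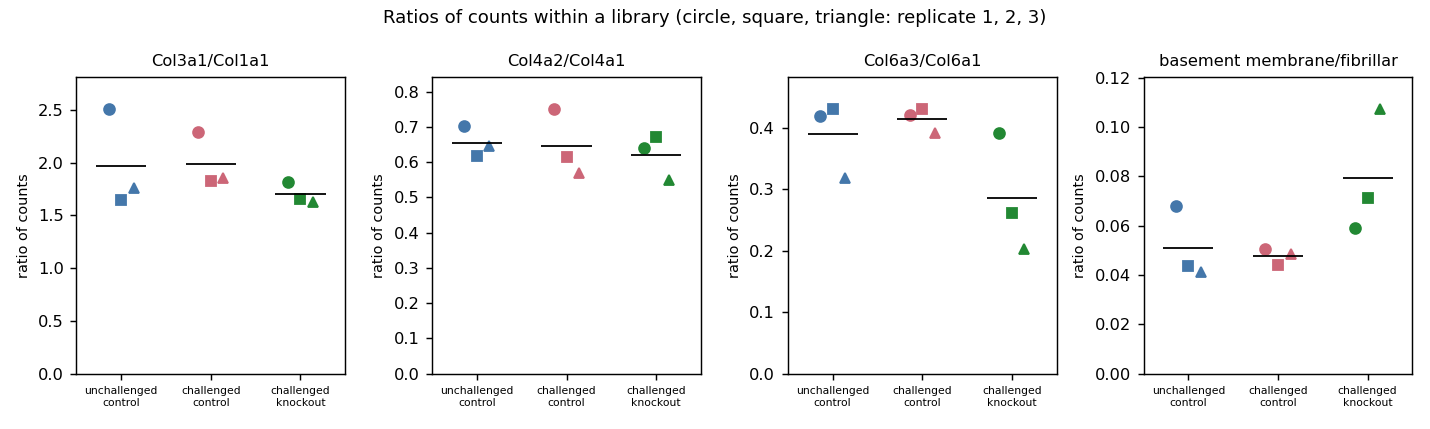
Ratios of counts within each library for Col3a1 to Col1a1, Col4a2 to Col4a1, Col6a3 to Col6a1 and basement membrane to fibrillar sums, on linear axes from 0. Points are pools, marker shape gives the replicate number and bars are group means; the basement membrane to fibrillar ratio is 0.0592 to 0.107 in knockouts and 0.0442 to 0.0506 in challenged controls.

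Of the other ratios, Col1a2 to Col1a1, whose products join in a fixed proportion in type I collagen, was 2.09, 1.15 and 1.31 in unchallenged controls 1 to 3, 1.79, 1.19 and 1.33 in challenged controls and 1.29, 1.43 and 1.33 in challenged knockouts. Replicate 1 of both control groups stood above the other 7 libraries. Col12a1 relative to Col1a1 was 0.0378, 0.0172 and 0.0107 in unchallenged controls 1 to 3, 0.0157, 0.00739 and 0.00753 in challenged controls and 0.0193, 0.0134 and 0.0238 in challenged knockouts. Its log2 difference was -1.0 under challenge and 0.94 between genotypes, with an exact permutation p = 0.2 for each. Col5a1 to Col1a1 was 0.262, 0.171 and 0.180 in unchallenged controls 1 to 3, 0.185, 0.182 and 0.172 in challenged controls and 0.161, 0.163 and 0.187 in challenged knockouts. Unchallenged control 1 was high in this ratio too, and the other 8 libraries lay between 0.161 and 0.187.

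Set against unchallenged controls, challenged knockouts had lower estimates for 32 of 38 collagens (49.3% of all genes), with a median log2 fold change of -0.68 beside 0.00 over all genes. Medians were -0.80 for the fibrillar genes, where all 11 estimates were below 0, -0.16 for the basement membrane genes and -0.68 for the others. Lower estimates were not particular to collagens. All 10 fibroblast markers had estimates below 0 too, with a median of -0.58. So had 11 of 12 procollagen processing and crosslinking genes (median -0.46) and 15 of 20 collagen synthesis genes (-0.24), lists described below. None of the 38 passed an adjusted p of 0.05 by edgeR (0% of all genes), with a lowest adjusted p of 0.999, and none passed by DESeq2 or limma voom. At an unadjusted p under 0.05, 1 collagen was higher and 5 were lower (2.9% of all genes, 1.25% higher and 1.65% lower). Without overlap, 0 were higher and 3 lower (Col14a1, Col23a1 and Col24a1), beside 6.59% of all genes (3.26% higher, 3.33% lower). Without knockout 1 the median over the 38 was -1.14, and without unchallenged control 2 it was -0.40. Genotype and challenge both differ between these groups and cannot be told apart.

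In this comparison Col14a1 had a log2 fold change of -0.85 ± 0.28, adjusted p = 0.999 (unadjusted p = 0.0129) by edgeR, and Col5a1 -0.95 ± 0.42. The type IV chain Col4a4 stood at 31.7, 35.7 and 15.2 CPM in unchallenged controls 1 to 3, 14.8, 33.4 and 14.2 CPM in challenged controls and 20.3, 8.37 and 3.94 CPM in challenged knockouts. Its knockouts 2 and 3 were the lowest of the 9 libraries, and its log2 fold change was -1.33 ± 0.58, adjusted p = 0.999 by edgeR. Col9a1, a cartilage-type chain, was named by the size of its estimate between genotypes and stood at 0.366, 0.650 and 1.47 CPM in unchallenged controls 1 to 3, 0.0618, 1.43 and 1.31 CPM in challenged controls and 0.506, 0.118 and 0.571 CPM in challenged knockouts. With 25 to 56 counts a group it overlapped in every comparison, at -1.22 ± 0.94, adjusted p = 0.747 between genotypes by edgeR. Col6a5 was above the unchallenged level in 2 of 3 knockouts, with a log2 fold change of 1.65 ± 0.67, adjusted p = 0.999. The fibrillar share differed by -0.86 on the log2 scale (exact permutation p = 0.2).

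The genes that make, process, bind and degrade collagen showed no member past the threshold in any of the 3 comparisons by edgeR. The synthesis list had 20 genes, all tested, with a median log2 fold change of -0.21 under challenge (0 with unadjusted p under 0.05) and 0.00 between genotypes (0). Its most abundant members were Sparc, a collagen-binding glycoprotein, and P4hb, a subunit of prolyl 4-hydroxylase. Sparc stood at 501, 1124 and 1226 CPM in unchallenged controls 1 to 3, 472, 774 and 764 CPM in challenged controls and 797, 489 and 347 CPM in challenged knockouts, with its lowest value in knockout 3. P4hb stood at 507, 668 and 728 CPM in unchallenged controls 1 to 3, 562, 695 and 751 CPM in challenged controls and 606, 857 and 692 CPM in challenged knockouts. Procollagen processing and crosslinking had 12 tested of 13 genes in the table, with medians of -0.33 under challenge (1 lower at an unadjusted p under 0.05) and -0.18 between genotypes (0). There the procollagen enhancer Pcolce and the procollagen protease Bmp1 had log2 fold changes of -0.56 and -0.24 under challenge.

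Collagen receptors had 9 tested genes and medians of -0.05 under challenge (0 with unadjusted p under 0.05) and -0.40 between genotypes (1 lower). The integrin chain Itgb1 and the discoidin domain receptor Ddr2, its most abundant members by mean log2 CPM, had log2 fold changes of -0.09 and -0.40 between genotypes. The epithelial receptor Ddr1, close to Ddr2 in level and named after its values were seen, was at 0.51. Degradation had 5 tested of 6 genes in the table, with medians of 0.18 (1 higher) and -0.38 (0). The gelatinase gene Mmp2 was at -0.27 and -0.38 on the log2 scale in the 2 comparisons, and the membrane-bound protease gene Mmp14 at 0.18 and -0.10. The member with an unadjusted p under 0.05, Mmp13, an interstitial collagenase, stood at 1.62, 0.880 and 0.787 CPM in unchallenged controls 1 to 3, 8.96, 1.88 and 2.11 CPM in challenged controls and 1.67, 2.0 and 1.26 CPM in challenged knockouts. It was higher in every challenged control than in any unchallenged control, most of all in challenged control 1, at a log2 fold change of 1.97 ± 0.64, adjusted p = 0.221 by edgeR.

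Profibrotic signalling had 11 tested of 12 genes in the table and medians of -0.15 under challenge (1 lower at an unadjusted p under 0.05) and -0.04 between genotypes (1 higher). Its most abundant members were Postn, a matricellular protein gene of fibroblasts, and the receptor gene Tgfbr2. Postn stood at 881, 864 and 692 CPM in unchallenged controls 1 to 3, 611, 847 and 639 CPM in challenged controls and 764, 425 and 225 CPM in challenged knockouts, with the lowest values in knockouts 2 and 3, and Tgfbr2 had log2 fold changes of -0.03 and -0.32. The lower member, Ccn2, a matricellular target of TGF-β signalling, stood at 87.4, 92.9 and 87.8 CPM in unchallenged controls 1 to 3, 70.3, 30.2 and 25.4 CPM in challenged controls and 44.1, 36.0 and 62.6 CPM in challenged knockouts. Every challenged control was below every unchallenged control, at -1.09 ± 0.36, adjusted p = 0.224 by edgeR. The higher member was Acta2, the smooth muscle actin of pericytes and myofibroblasts, at 12.7, 20.8 and 10.1 CPM in unchallenged controls 1 to 3, 16.9, 17.2 and 18.4 CPM in challenged controls and 218, 7.48 and 35.2 CPM in challenged knockouts. Knockout 1 stood above the other 8 libraries, knockout 2 below them, and the log2 fold change was 2.31 ± 0.90, adjusted p = 0.527 by edgeR. Mmp13, Ccn2 and Acta2 were chosen after their values were seen.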

How the data were processed

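Per the labels, conjunctival RNA of pools of 3 mice was sequenced in 9 libraries. The authors deposited a table of whole-number read counts by gene symbol, with no normalization. HISAT2, Bowtie2, DESeq2 and build mm39 are named, without versions, in the submitters' processing notes; for the counting program, annotation and strand, the sources used here give nothing. Total counts were 16490050 to 24746836, so 3 counts amount to 0.121 to 0.182 CPM, which covers counting error only. No pair of libraries in a group agreed within sampling noise.

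Genes were filtered with filterByExpr (15613 of 20603 kept), scaled with TMM and fitted over all 9 libraries with edgeR's quasi-likelihood test (R 4.3.3, edgeR 4.0.16, limma 3.58.1), two-sided, with Benjamini-Hochberg adjustment over all genes tested and a threshold of 0.05; adjusted p-values are from this fit unless another is named. The biological coefficient of variation was 31.7%. SEs of log2 fold changes are the estimate over the root of its F statistic. Shares and ratios were compared by exact two-sided permutation tests, adjusted over 12 shares and 30 ratios. Alternatives were other scalings, filters, DESeq2 1.42.0, limma voom, the replicate number as a block and the omission of single libraries. The pipeline was tested on simulated data.

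Members, classes and lists were chosen with earlier results of these data known. Values in every library are given for the 4 most abundant genes of each class, any gene past the threshold and the 3 largest estimates in each comparison; for each pathway list the 2 most abundant members are named. Col6a3, Col6a6, Col12a1 and Col13a1, and genes named by their lack of overlap, were chosen after their values were seen. Same-numbered unchallenged and challenged control pools deviated together from their group means (correlations 0.458, 0.245 and 0.488). No such correlation was computed for pools of different number, and the labels do not give the meaning of the numbers. Whether the numbers pair these pools is thus not known. The main edgeR test, the overlap counts and the permutation tests did not use the numbers. Transcript lengths came from GENCODE M21 (GRCm38), and promoters from RefSeq (GRCm38.p6), which matched 33 of 42 genes.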

Additional observations from a re-analysis of the deposited data

How the results depend on the processing

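The count of collagens past an adjusted p of 0.05, 0 in each comparison by edgeR, was 3 under challenge (Col6a5, Col22a1 and Col12a1) and 1 between genotypes (Col6a5) by DESeq2's Wald test. With the replicate number as a block it was 1 under challenge (Col6a5), both over 9 libraries and within the 2 groups compared, and the block changed no other call. For knockouts the correlations of same-numbered deviations were of mixed sign. They were 0.339, -0.147 and 0.334 for numbers 1 to 3 with challenged controls, and 0.318, -0.089 and 0.334 with unchallenged controls. DESeq2 size factors, library totals, no count filter, a minimum of 10 counts in 3 libraries, limma voom and fits of 2 groups left each count at 0. Leaving out 1 library gave 0 to 1 under challenge (1 without unchallenged control 1 or without knockout 3). The log2 scaling shift of all genes was at most 0.068 in size, with library totals under challenge (-0.068).

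Taking type IV alone as basement membrane turned that median between genotypes from -0.15 to 0.15. Relative to the fibroblast list, an alternative chosen after seeing the data, the fibrillar difference under challenge turned from -0.20 to 0.23. The Col4a1 estimate of knockouts against unchallenged controls turned from -0.12 to 0.019 with the block, and that of Col9a1 under challenge from 0.20 to -0.25 with limma voom; the cause was not tested.

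Leaving out single libraries turned or moved these log2 differences, none of which passed a test. Under challenge the ranges were -0.56 to 0.036 for the share of all collagens, -0.63 to 0.091 for the fibrillar share, -0.19 to 0.17 for basement membrane to fibrillar and -0.17 to 0.29 for other to fibrillar counts. Ratios under challenge ran from -0.086 to 0.22 for Col3a1/Col1a1, -0.23 to 0.20 for Col1a2/Col1a1, -0.27 to 0.035 for Col5a1/Col1a1, -0.14 to 0.056 for Col4a2/Col4a1, -0.11 to 0.064 for Col6a2/Col6a1 and -0.037 to 0.18 for Col6a3/Col6a1. Single genes under challenge ran from -0.49 to 0.078 (Col3a1), -0.68 to 0.079 (Col1a1), -0.76 to 0.040 (Col4a1), -0.43 to 0.049 (Col18a1), -0.32 to 0.14 (Col4a5), -0.17 to 0.38 (Col17a1) and -0.27 to 0.88 (Col9a1). Between genotypes the ranges were -0.26 to 0.13 for the basement membrane median, -0.35 to 0.095 for the median of the others, -0.20 to 0.15 for the basement membrane share, -0.19 to 0.10 for Col1a2/Col1a1, -0.14 to 0.22 for Col5a2/Col5a1 and -0.14 to 0.064 for Col4a2/Col4a1. Genes between genotypes ran from -0.42 to 0.052 (Col18a1), -0.028 to 0.46 (Col4a2), -0.060 to 0.40 (Col4a5), -0.017 to 0.42 (Col17a1) and -0.017 to 1.34 (Col8a2). For knockouts against unchallenged controls they were -0.47 to 0.028 for the basement membrane median, -1.04 to -0.40 for the median of the others, -0.29 to 0.14 for Col1a2/Col1a1, -0.14 to 0.0047 for Col4a2/Col4a1, -0.48 to 0.43 for Col12a1/Col1a1, -0.45 to 0.35 for Col4a1, -0.47 to 0.26 for Col4a2 and -0.050 to 0.30 for Col4a5.

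Limits follow from 3 pools a group, from pools that differ in muscle and fat transcripts, and from depth. Col24a1 rests on 67, 19 and 47 counts in the 3 groups and Col4a3 on 53, 34 and 23. A share test with 3 against 3 pools cannot go below p = 0.1 (exact permutation test). Library strand is not stated, and exons of Col9a3 overlap Tcfl5 over 6.07% and those of Col4a3 overlap C430014B12Rik over 5.65% of their bases in GENCODE M21, and the share of reads there was not tested.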
